A study of Rattus norvegicus with 6 samples.

Results

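The genes named Spata, for spermatogenesis associated, were followed through the germ cell classes of the rat testis and compared between stressed and control animals. Every row name of the count tables that begins with Spata and a digit was taken as a member, the Spata31 genes included, which gave 30 of the 21170 genes listed. Of these, 29 had a count. Spata13 had 0 counts in 11744 cells, which allows a share of cells with a count of up to 0.0255% and covers counting error only. The tissue was testis of SD rats, a laboratory strain, with 3 normal control rats and 3 rats exposed to a terrifying sound as psychological stress, and each rat gave 1 single-cell library made with the Singleron GEXSCOPE kit. The labels used here give no age of the animals and no time between the stress and the sampling. The study asks whether this stress disturbs spermatogenesis.

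Spermatogenesis runs from spermatogonia through spermatocytes, the cells in meiosis, to haploid round spermatids and then elongating spermatids, in which the chromatin is packed with transition proteins and protamines and the tail is built. The Spata genes share a naming scheme and not a common ancestor: they were named because their transcripts were found in, or changed with, sperm formation, and their products range from meiotic recombination factors to parts of the sperm tail. Only small groups within it, such as the Spata31 genes or Spata6 and Spata6l, are related in sequence.

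Total counts per library lay between 73650164 and 114984746, except in stressed replicate 1, which had 16756543 counts and 409 cells against 1801 to 2506 cells elsewhere. Cells were clustered without the Spata genes, and clusters were named from marker genes, which gave 5862 elongating spermatid-like cells, 4157 round spermatid-like cells and 1357 cells like spermatocytes, with at least 20 cells of each class in every library. The classes carried their markers: Sycp3, a protein of the meiotic chromosome axis, had a median of 258 CPM (a gene's count relative to all counts of the sum, scaled as below) in spermatocyte-like, 30.4 in round and 16.3 in elongating spermatid-like cells, and protamine Prm2 had 335, 2183 and 49900 CPM. Stressed replicate 1 stood apart. There 244 of 409 cells (59.7%) stayed in unnamed clusters, only 40 cells were elongating spermatid-like, and 75.0% of those 40 lay in the earliest elongating cluster, against 2.88% to 18% in the other libraries. Its 24 spermatocyte-like cells also carried 999 CPM of summed macrophage markers and 804 CPM of summed stromal markers, where the other libraries had 26.1 to 51.0 and 4.87 to 25.8 CPM. Only 2 barcodes occurred in more than 1 library.

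The promoters of members with different stage patterns are shown first, to set the sequence beside the levels that follow. The cAMP response element TGACGTCA is the site of CREM, an activator of post-meiotic genes, and TGACG is the core of that site. Each line gives the 250 bases before the annotated start, 5′ to 3′ on the gene's strand, from RefSeq on GRCr8. The build behind the counts is not given in the sources used here. Capitals in Spata7, Spata18 and Spata32, which were highest in elongating spermatid-like cells, mark matches on either strand to TGACGTCA (Spata7) or TGACG (Spata18 and Spata32). Spata22, highest in spermatocyte-like cells, had neither and has no capitals.
Spata7: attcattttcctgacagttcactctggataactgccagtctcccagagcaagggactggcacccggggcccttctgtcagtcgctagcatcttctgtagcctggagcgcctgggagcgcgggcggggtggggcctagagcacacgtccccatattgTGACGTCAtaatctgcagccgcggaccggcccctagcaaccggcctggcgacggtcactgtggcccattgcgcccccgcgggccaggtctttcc
Spata18: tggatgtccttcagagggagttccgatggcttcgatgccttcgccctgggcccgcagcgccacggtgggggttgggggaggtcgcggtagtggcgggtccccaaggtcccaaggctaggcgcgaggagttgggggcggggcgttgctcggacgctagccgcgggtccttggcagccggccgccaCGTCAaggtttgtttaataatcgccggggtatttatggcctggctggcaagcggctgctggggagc
Spata32: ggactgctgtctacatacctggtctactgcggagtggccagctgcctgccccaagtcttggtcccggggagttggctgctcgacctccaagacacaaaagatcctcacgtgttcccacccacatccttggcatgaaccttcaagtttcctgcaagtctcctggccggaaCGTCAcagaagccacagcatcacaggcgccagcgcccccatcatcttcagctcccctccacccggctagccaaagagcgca
Spata22: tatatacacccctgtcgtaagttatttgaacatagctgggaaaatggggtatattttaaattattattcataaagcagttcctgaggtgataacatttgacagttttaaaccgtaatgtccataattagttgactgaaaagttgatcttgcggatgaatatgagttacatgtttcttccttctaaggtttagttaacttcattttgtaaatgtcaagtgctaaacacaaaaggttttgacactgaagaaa
The windows lie at chr6:123609364-123609613 (plus strand) for Spata7, chr14:34912705-34912954 (minus strand) for Spata18, chr10:88664145-88664394 (minus strand) for Spata32 and chr10:58445083-58445332 (plus strand) for Spata22. The full element stood in the Spata7 window and in no other of the 28 members with a single window of 300 bases, and 1.83% of all 33469 such windows held it. The core TGACG, counted on both strands and also within full elements, stood in 8 of the 28 windows, against 21.2% of all windows. It stood in 6 of 15 windows of members highest in elongating spermatid-like cells. For members highest in round spermatid-like cells it stood in 2 of 10, and for those highest in spermatocyte-like cells in 0 of 2. These groups go by medians scaled as below. In CPM of all counts without that scaling, Spata1, Spata4 and Spata17 were highest in spermatocyte-like cells. Spata6l, Spata24 and Spata31e1 were then highest in round ones, and of all these only Spata1 held the core. Spata3, Spata19, Spata20 and Spata33, also highest in elongating spermatid-like cells, did not hold it. The printed windows are thus examples, and a link between motif and stage was not tested. GTTGCC, the core of the X-box bound by RFX factors, stood in 8 of the 28 windows, against 12.2% of all. A match is a description of letters in these windows only.

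The neighbouring copies Spata31d1, Spata31d1b and Spata31d3 on chromosome 17 are shown to set beside each other the upstream bases of neighbouring members that were all highest in round spermatid-like cells. Capitals mark the longest run that Spata31d1b and Spata31d3 share, and in Spata31d1 the longest part of that run that it also holds.
Spata31d1: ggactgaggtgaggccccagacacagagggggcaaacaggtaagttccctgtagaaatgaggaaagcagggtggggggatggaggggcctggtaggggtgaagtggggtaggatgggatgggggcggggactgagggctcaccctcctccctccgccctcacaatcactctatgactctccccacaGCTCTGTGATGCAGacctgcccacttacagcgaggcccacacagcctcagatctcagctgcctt
Spata31d1b: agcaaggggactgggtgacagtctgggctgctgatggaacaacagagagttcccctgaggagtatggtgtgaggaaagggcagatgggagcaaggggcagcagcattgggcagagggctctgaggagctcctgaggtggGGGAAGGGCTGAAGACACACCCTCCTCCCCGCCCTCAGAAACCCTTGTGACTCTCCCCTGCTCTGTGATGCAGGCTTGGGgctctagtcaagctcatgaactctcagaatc
Spata31d3: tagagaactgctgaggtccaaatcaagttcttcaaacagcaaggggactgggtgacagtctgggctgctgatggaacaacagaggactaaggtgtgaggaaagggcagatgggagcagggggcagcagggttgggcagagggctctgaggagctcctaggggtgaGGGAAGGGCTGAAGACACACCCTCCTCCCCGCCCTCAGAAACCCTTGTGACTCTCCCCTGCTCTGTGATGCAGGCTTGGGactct
Their windows are chr17:4948025-4948274 (plus strand), chr17:4964525-4964774 (minus strand) and chr17:4970085-4970334 (plus strand). Spata31d1b and Spata31d3 shared an unbroken run of 80 bases, found in 2 of 33469 windows, and 70.8% of their aligned upstream bases were identical. Spata31d1 shared 14 bases with both, a run found in 5 windows, and was identical at 58.5% and 51.2% of aligned bases. Upstream bases do not show how alike the transcripts are. How the authors assigned reads between related genes is not given in the sources used here, so the split of counts among these 3 genes is uncertain. Spata2L and Spata33 are also neighbours, on chromosome 19, with the single protein-coding gene Cdk10 between them.

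Counts were summed per library and class, and stages were compared within libraries. The Spata genes made up a growing share of all counts along the lineage. Their summed level, in CPM of all counts without further scaling, was 4781 to 7027 (median 5853) in the 6 spermatocyte-like sums, 14923 to 15959 (median 15469) in round and 18333 to 24529 (median 22152) in elongating spermatid-like sums, and these ranges did not overlap. Few members held most of these counts, which are not per transcript length: Spata6 took 39.8% of the members' counts in elongating, 25.1% in round and 13.9% in spermatocyte-like cells, where Spata1 (24.0%) and Spata4 (17.8%) took more.

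Scaling mattered for single genes. The 10 most abundant genes took 19.4% to 28.4% of all counts in elongating spermatid-like sums and 6.76% to 9.55% in round ones. Levels and changes below are scaled with TMM factors, which set most genes level between classes and were 0.40 to 0.45 in elongating spermatid-like sums (0.84 in stressed replicate 1), 1.04 to 1.26 in round and 1.64 to 2.32 in spermatocyte-like sums. With TMM the median log2 change of all 12467 genes tested was 0.14 from spermatocyte-like to round and -0.25 from round to elongating spermatid-like cells. With total counts alone these medians were -0.57 and -1.55, so a member that changed by less than about these shifts can turn its sign. All tests of stages are edgeR quasi-likelihood tests paired by library, with p adjusted over all genes tested, and the classes came from other genes of the same cells.

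From spermatocyte-like to round spermatid-like cells, 25 of the 29 members tested were higher and 3 were lower at an adjusted p under 0.05, against 38.1% and 27.4% of all genes. The median log2 change of the members was 3.28. With total counts alone 22 were higher and 5 lower, against 30.2% and 44.0% of all genes. DESeq2 called 23 higher and 3 lower (36.6% and 36.3% of all genes), and 22 higher and 3 lower members were called the same way with TMM, total counts and DESeq2, against 30.1% and 27.3% of all genes. From round to elongating spermatid-like cells the members divided: 13 were higher and 11 lower, against 25.4% and 34.7% of all genes, with a median log2 change of 0.15. With total counts alone 8 were higher and 16 lower (8.54% and 63.2% of all genes). DESeq2 called 15 higher and 9 lower (31.0% and 33.7% of all genes), and 8 higher and 9 lower members were called the same way in all 3 scalings, against 8.53% and 33.3% of all genes. Without stressed replicate 1 the TMM counts were 25 and 3 for the first step, against 4962 and 3752 of 13059 genes. For the second they were 14 and 13, against 3543 and 4499 genes.

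**Figure D1:**
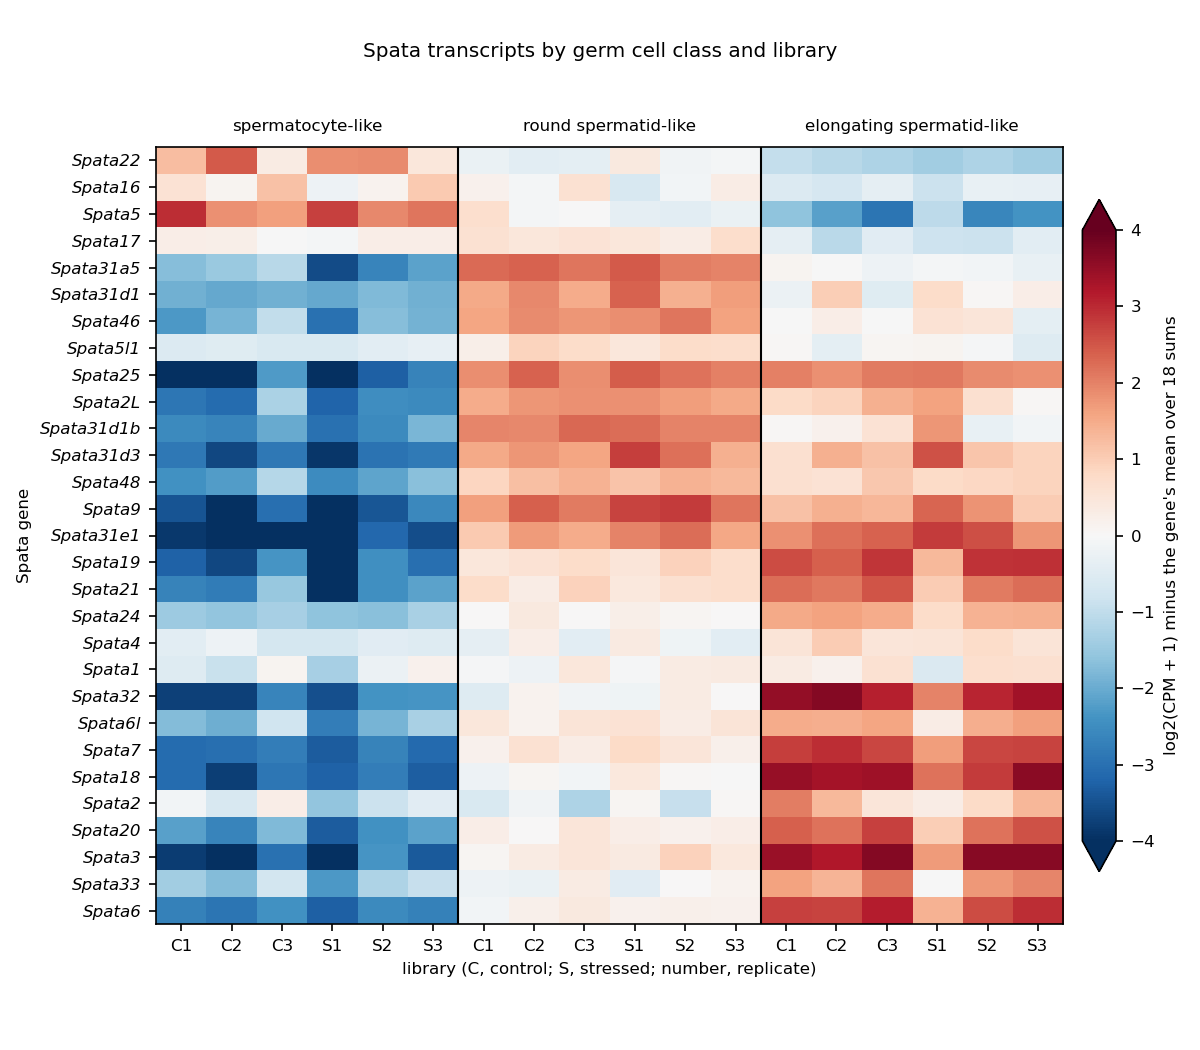
Level of each of the 29 Spata genes with a count (rows) in each library (columns, C control and S stressed) of the 3 germ cell classes, as log2(CPM + 1) minus the gene's mean over the 18 sums. Spata22 and Spata5 are red at left, the Spata31 genes mostly in the middle and Spata6, Spata18, Spata3 and Spata32 at right, and column S1 of the elongating class is paler than its neighbours.

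The members highest in spermatocyte-like cells were Spata22, Spata5 and Spata16. Spata22 encodes a partner of Meiob that binds single-stranded DNA during meiotic recombination. In spermatocyte-like cells it lay between 2.30 and 13.4 CPM (median 6.79), in round spermatid-like cells between 0.955 and 2.45 (median 1.28) and in elongating ones between 0 and 0.368 (median 0.115). The spermatocyte-like and round ranges met only at control replicate 3 (2.30 CPM) and stressed replicate 1 (2.45 CPM), and in every library the spermatocyte-like value was the higher. Its log2 change was -2.04 ± 0.50 (SE) into round (adjusted p = 0.00145) and -3.14 ± 0.60 into elongating spermatid-like cells (adjusted p = 1.88e-04). Counts were few: 532 in 154 of 1357 spermatocyte-like cells, 240 in 76 of 4157 round and 16 in 8 of 5862 elongating spermatid-like cells.

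Spata5 encodes an AAA ATPase, now also called Afg2a, that acts in the maturation of ribosomal subunits. It ran from 26.5 to 68.5 CPM (median 35.4) in spermatocyte-like, from 5.60 to 13.1 (median 6.91) in round and from 0.164 to 3.33 (median 0.846) in elongating spermatid-like cells, and none of these ranges overlapped. The log2 changes were -2.37 ± 0.30 (adjusted p = 1.45e-06) and -3.16 ± 0.36 (adjusted p = 4.15e-07). Its partner in that complex, Spata5l1 (Afg2b), went another way. It lay at 0 to 0.214 CPM (median 0.0746) in spermatocyte-like, 0.820 to 1.84 (median 1.52) in round and 0.0775 to 0.665 (median 0.530) in elongating spermatid-like cells, so it was highest in round cells in 6 of 6 libraries. Spata5l1 rested on 9, 286 and 39 counts in the classes, and its changes were 3.74 ± 0.74 (adjusted p = 2.29e-04) and -1.81 ± 0.66 (adjusted p = 0.0249).

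Spata16 encodes a protein of the acrosome, the cap-shaped vesicle of the sperm head, and its loss causes round-headed sperm. Its ranges overlapped between neighbouring classes, with 34.4 to 90.7 CPM (median 51.5) in spermatocyte-like, 24.7 to 61.4 (median 40.9) in round and 21.3 to 32.0 (median 28.6) in elongating spermatid-like cells. Within each of the 6 libraries it was lower at each step. The first change was small, at -0.45 ± 0.17 (adjusted p = 0.0258), and it lost its call in 6 of the alternatives tried, among them those without control replicate 1, control replicate 3, stressed replicate 2 or stressed replicate 3 (adjusted p = 0.0569, 0.0632, 0.0516 and 0.105). The second was -0.57 ± 0.17 (adjusted p = 0.00758).

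The Spata31 genes, a family of spermatid proteins with no firmly known role, rose from the spermatocyte-like to the round spermatid-like class. In spermatocyte-like cells Spata31d1, Spata31d1b, Spata31d3 and Spata31e1 were all at or below 1.41 CPM in every library. In round spermatid-like cells Spata31d1 lay at 10.1 to 20.4 CPM (median 11.5), Spata31d1b at 28.7 to 37.9 (median 30.3), Spata31d3 at 38.8 to 99 (median 46.3) and Spata31e1 at 42.9 to 99.3 (median 64.1). The log2 changes were 6.79 ± 0.49 for Spata31d1, 5.72 ± 0.41 for Spata31d1b, 5.83 ± 0.36 for Spata31d3 and 6.79 ± 0.37 for Spata31e1 (adjusted p = 6.32e-10, 6.03e-10, 8.87e-11 and 2.54e-11). Against spermatocyte-like sums with libraries at 0 such fitted changes depend on the prior count.

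Spata31a5 differed from these in its spermatocyte-like level, which was already 4.49 to 29.3 CPM (median 16.4). It reached 256 to 356 CPM (median 297) in round spermatid-like cells (log2 change 4.24 ± 0.27, adjusted p = 1.48e-10) and came down to 51.5 to 69.4 CPM (median 59.8) in elongating ones (-2.33 ± 0.25, adjusted p = 1.82e-07). In the second step Spata31d1 and Spata31d1b also fell, by 1.73 ± 0.34 and 1.83 ± 0.33 on the log2 scale (adjusted p = 2.56e-04 and 8.82e-05). Spata31d3 did not pass the test with TMM (-0.59 ± 0.27, adjusted p = 0.0700) but was lower with total counts (-1.83, adjusted p = 9.36e-05). Spata31e1 was the exception of the family, with 70.5 to 148 CPM (median 102) in elongating spermatid-like cells, a change of 0.61 ± 0.26 (adjusted p = 0.0503) that was -0.64 with total counts (adjusted p = 0.0708).

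Other members shared the round spermatid peak. Spata46, a protein of the nuclear envelope needed for the shape of the sperm head, rose from 21.9 to 90.7 CPM (median 48.7) to 545 to 792 (median 632), and fell to 139 to 267 (median 198), with no overlap between classes. Its log2 changes were 3.70 ± 0.25 (adjusted p = 2.28e-10) and -1.64 ± 0.23 (adjusted p = 4.36e-06). Spata9 went from at most 11.2 CPM to 224 to 502 (median 350), and Spata25 from at most 15.5 CPM to 283 to 419 (median 336). These gains of 5.95 ± 0.43 and 5.91 ± 0.51 on the log2 scale (adjusted p = 6.57e-10 and 8.26e-09) were followed by changes of -0.77 ± 0.34 and -0.19 ± 0.40 that did not pass the test (adjusted p = 0.0573 and 0.698) but did with total counts (-2.0 and -1.42, adjusted p = 1.91e-04 and 0.00766).

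Spata2L encodes a relative of Spata2, and Spata2 links the deubiquitinase Cyld to the linear ubiquitin ligase complex. The 2 relatives were highest in different classes. Spata2L was at or below 2.83 CPM in spermatocyte-like cells, at 24.8 to 31.6 (median 29.4) in round and at 8.53 to 27.3 (median 15.4) in elongating spermatid-like cells, with changes of 5.45 ± 0.46 (adjusted p = 6.03e-09) and -0.85 ± 0.36 (adjusted p = 0.0465, and 0.142 with DESeq2). Spata2 had 0 to 2.62 CPM (median 1.04), 0.265 to 2.18 (median 1.32) and 2.66 to 11.3 (median 5.17), so its elongating range lay above both others. It was the only member not called in the first step (-0.10 ± 0.61, adjusted p = 0.901). Its second step, 2.23 ± 0.59 (adjusted p = 0.00322), was not called with total counts (0.92, adjusted p = 0.165).

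Spata48, also named Spmip7 for a protein inside the microtubules of the sperm tail, had the smallest p of the first step (3.25 ± 0.17 on the log2 scale, adjusted p = 1.52e-11), from 18.4 to 49.0 CPM (median 23.8) to 202 to 289 (median 264). In elongating ones it lay at 165 to 232 CPM (median 192), a change of -0.42 ± 0.15 (adjusted p = 0.0241) that DESeq2 did not call (adjusted p = 0.200).

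Spata3, Spata6, Spata7, Spata18, Spata19, Spata20, Spata32 and Spata33 had their highest median in elongating spermatid-like cells. Spata6, a protein of the connecting piece that joins head and tail, ran from 310 to 555 CPM (median 460) in spermatocyte-like cells through 2797 to 3897 (median 3419) in round to 7820 to 26164 (median 19800) in elongating ones. The ranges did not overlap, and the lowest elongating value was that of stressed replicate 1. Its log2 changes were 2.95 ± 0.20 (adjusted p = 2.13e-10) and 2.42 ± 0.19 (adjusted p = 4.52e-09), and the second was 1.16 with total counts (adjusted p = 1.63e-08).

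Spata19, a mitochondrial protein of the sperm midpiece, rose at both steps from 61.3 to 215 CPM (median 125) over 1508 to 2095 (median 1701) to 2722 to 8397 (median 7266). The changes were 3.8 ± 0.22 (adjusted p = 3.59e-11) and 1.83 ± 0.20 (adjusted p = 2.49e-07). Spata18, known as Mieap and tied to mitochondrial quality control, rose later in relative terms, from 12 to 25.4 CPM (median 18.9) over 155 to 238 (median 179) to 808 to 2155 (median 1826), with changes of 3.28 ± 0.25 (adjusted p = 1.25e-09) and 3.14 ± 0.24 (adjusted p = 3.63e-09). Spata33, which tethers calcineurin to sperm mitochondria, was present early, at 200 to 583 CPM (median 393). It reached 709 to 1238 (median 918) and 967 to 4310 CPM (median 3112), and its changes were smaller, at 1.32 ± 0.17 (adjusted p = 1.37e-06) and 1.54 ± 0.17 (adjusted p = 3.02e-07).

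Spata7, a ciliary protein whose loss causes retinal degeneration and the member with the full cAMP response element, rose from 48.4 to 77.2 CPM (median 58.7) to 559 to 836 (median 650) and then to 1579 to 3876 (median 3197). Its changes were 3.46 ± 0.20 (adjusted p = 5.31e-11) and 2.16 ± 0.19 (adjusted p = 2.07e-08). Spata32 showed the largest second step, 3.31 ± 0.32 (adjusted p = 4.82e-08), from 15.1 to 27.9 CPM (median 21.1) to 90.5 to 295 (median 215), after 0.713 to 3.47 CPM (median 1.86) in spermatocyte-like cells (first step 3.49 ± 0.35, adjusted p = 6.99e-08). Spata3 ran from 13.3 to 85.7 CPM (median 36.7) over 470 to 848 (median 586) to 1469 to 5672 (median 5248), with changes of 4.10 ± 0.30 and 2.80 ± 0.28 (adjusted p = 8.77e-10 and 1.04e-07). Spata20, a protein with a thioredoxin-like domain, ran from 81.2 to 242 CPM (median 166) over 826 to 1154 (median 979) to 1608 to 5498 (median 4010), with changes of 2.68 ± 0.19 and 1.92 ± 0.19 (adjusted p = 6.80e-10 and 7.25e-08). All 8 of Spata3, Spata6, Spata7, Spata18, Spata19, Spata20, Spata32 and Spata33 were higher in elongating than in round spermatid-like cells in 6 of 6 libraries, under TMM and under total counts.

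Several later members depended on the scaling. Spata21 rose into elongating spermatid-like cells with TMM (1.39 ± 0.21, adjusted p = 1.26e-05) but not with total counts (0.16, adjusted p = 0.464), after a first step of 3.25 ± 0.23 (adjusted p = 3.87e-10). Spata24 (1.24 ± 0.15, adjusted p = 1.0e-06) and Spata6l, a relative of Spata6 (0.90 ± 0.21, adjusted p = 0.00118), were higher with TMM and at -0.01 and -0.35 with total counts (adjusted p = 0.919 and 0.0727). Both were higher in the first step under each scaling, by 1.62 ± 0.15 and 2.16 ± 0.22 on the log2 scale with TMM (adjusted p = 2.41e-08 and 6.53e-08).

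Spata1, Spata4 and Spata17, the last an IQ-motif protein, were present in all classes and turned their sign with the scaling in at least 1 step. Spata17 lay at 134 to 172 CPM (median 168) in spermatocyte-like and at 175 to 233 (median 200) in round cells, a change of 0.35 ± 0.14 (adjusted p = 0.0345) that turned to -0.37 with total counts (adjusted p = 0.0439), and it then fell by 1.18 ± 0.14 (adjusted p = 8.58e-07) under every scaling, to 66.9 to 110 CPM (median 91). Spata4 was higher at both steps with TMM (0.39 ± 0.15 and 0.73 ± 0.15, adjusted p = 0.0245 and 2.52e-04) and lower at both with total counts (-0.34 and -0.50, adjusted p = 0.0101 and 6.00e-04). Spata1 changed by 0.60 ± 0.15 (adjusted p = 0.00218) and 0.15 ± 0.15 (adjusted p = 0.406) with TMM and by -0.13 and -1.09 with total counts (adjusted p = 0.293 and 2.16e-07).

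**Figure D2:**
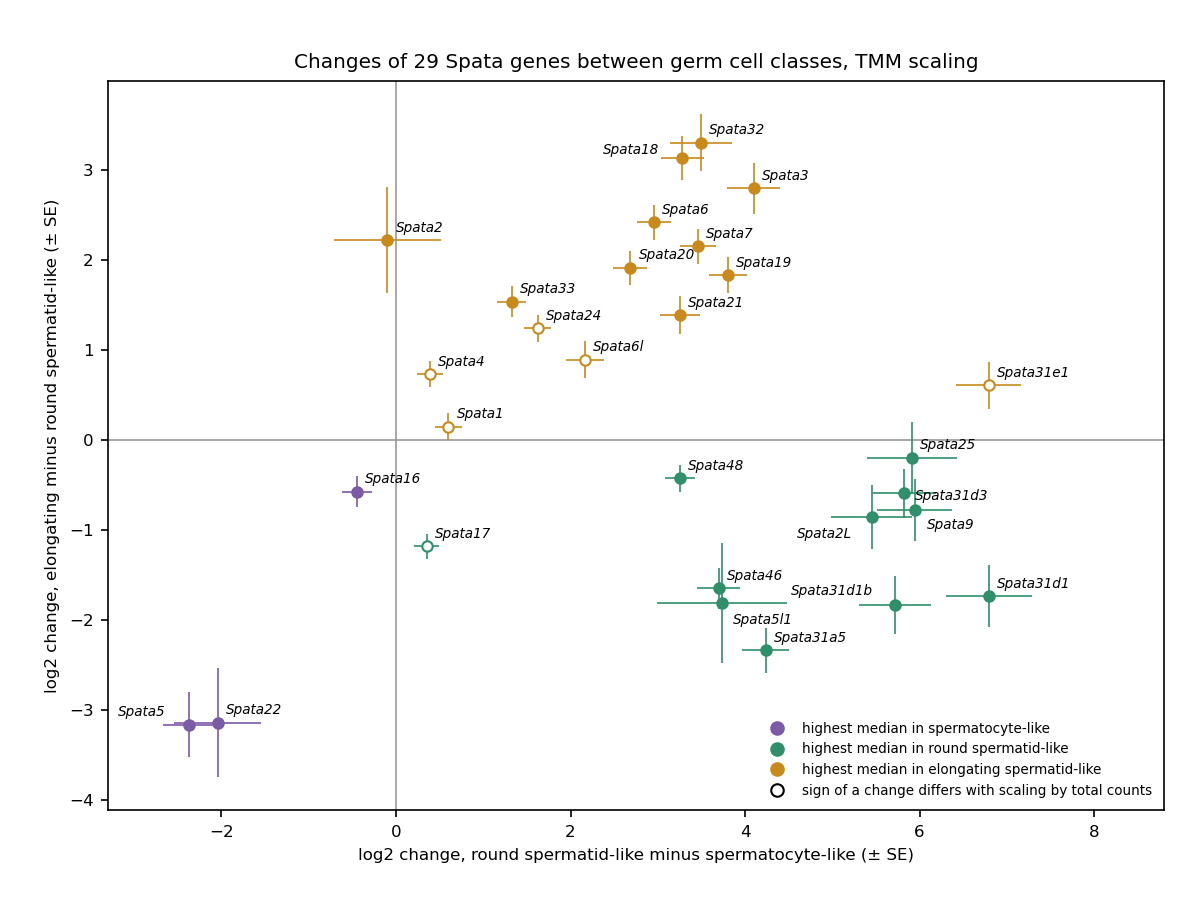
Log2 change of each of 29 Spata genes from spermatocyte-like to round spermatid-like cells (x axis) against that from round to elongating spermatid-like cells (y axis), with SE bars and TMM scaling, coloured by the class with the highest median level. Spata5 and Spata22 sit at lower left, Spata31d1 at 6.79 and -1.73, and Spata18 and Spata32 at upper right, and open circles mark members for which a change has another sign with total counts.

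Within the classes the germ cells formed 11 clusters, which were put in order by the likeness of their other genes, starting from the cluster with the highest spermatocyte score. The order ran through 2 spermatocyte-like, 3 round and 6 elongating spermatid-like clusters, and the values are means over the 4 to 6 libraries with at least 20 cells of a cluster, without a test. Positions 8 and 11 lack control replicate 2 and positions 9 and 10 control replicate 3, and stressed replicate 1 is in none of positions 1, 2 and 7 to 11, so neighbouring positions are not always from the same rats. Only 3 libraries (control replicate 1 and stressed replicates 2 and 3) had that many cells in every position. Over these 3 alone, a look added after seeing the data, 28 of 29 members had the same peak position. The exception was Spata4 (position 7 in place of 9). These 3 also enter the means over all libraries, so this likeness is partly built in. Single libraries varied more: in control replicate 1, stressed replicate 2 and stressed replicate 3, Spata22 peaked in positions 1, 2 and 3. In the same order, Spata21 peaked in positions 8, 10 and 9 and Spata20 in 11, 10 and 10. Spata6 and Spata33 peaked in 11, 10 and 11, whereas Spata3 and Spata18 peaked in 11 in each. In the means over 4 to 6 libraries, Spata22 was highest in position 1 at 7.80 CPM. Spata5 and Spata16 peaked in position 2 at 33.5 and 59.5 CPM. Spata17 followed in position 3 at 191 CPM. Spata31a5 and Spata46 peaked in position 4 at 286 and 605 CPM, but left differently: by position 6 Spata31a5 was at 38.1 CPM and Spata46 still at 326 CPM.

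Position 5, the last round spermatid-like cluster, held the peaks of Spata9 (456 CPM), Spata25 (521 CPM), Spata2L (49.7 CPM), Spata48 (356 CPM), Spata31d1b (58.8 CPM) and Spata31d3 (111 CPM). Spata31e1 stayed between 109.7 and 128 CPM in positions 5 to 7 and was at 21.5 CPM in position 8. Positions 8 to 11 of the elongating class were thus below the last round cluster for Spata31e1. By class, its elongating median was above the round one with TMM (102 and 64.1 CPM). In CPM of all counts it was below (43.5 and 73.8 CPM). Spata19, Spata21 and Spata24 peaked in position 8 at 7524, 753 and 988 CPM, Spata7 and Spata32 in position 10 at 3246 and 347 CPM, and Spata6, Spata18, Spata20, Spata33 and Spata3 in position 11 at 28531, 2785, 5992, 4707 and 8148 CPM. Spata19 came down to 3612 CPM in position 11, where Spata18 and Spata6 were at their highest (both positions rest on the same 4 libraries). In the 3 libraries alone Spata19 was at 7396 CPM in position 8 and 3416 in position 11, and peaked in position 8 in each. Spata7 peaked in position 10 in each of these 3, and Spata32 in position 10 in 2 of them and in position 11 in stressed replicate 2.

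**Figure D3:**
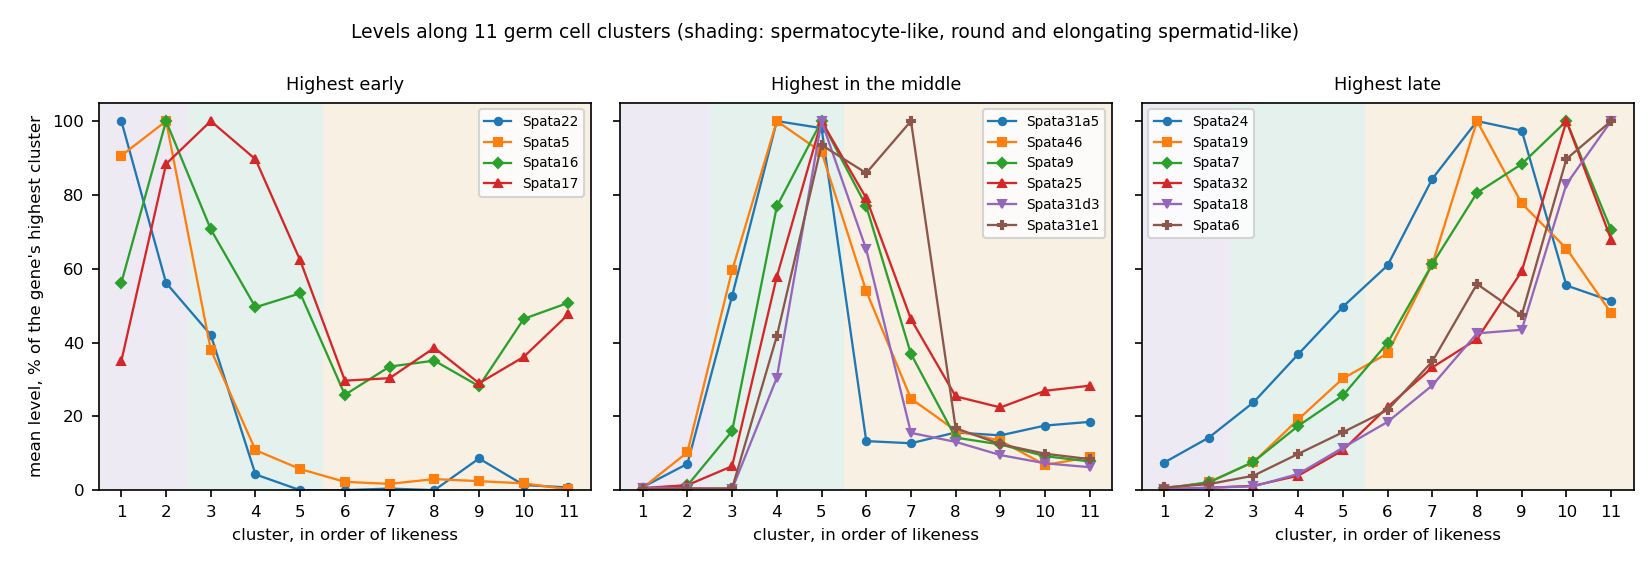
Mean TMM-scaled level of 16 Spata genes in 11 germ cell clusters placed in order of likeness (x axis), as a percentage of the gene's highest cluster (y axis), with shading for the 3 classes. Spata22 and Spata5 leave by position 4, Spata31a5 drops between positions 5 and 6 and Spata31e1 between positions 7 and 8, and Spata24 and Spata19 peak at position 8 while Spata18 and Spata6 peak at position 11.

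Free RNA in a droplet or well can give low counts in cells that do not express a gene, so levels in spermatocyte-like cells were set beside those of the protamine and transition protein genes. Prm2 and Tnp1 had a median spermatocyte-like level of 0.76% and 0.60% of their elongating level. Spata31e1 (0.42%), Spata3 (0.87%), Spata18 (1.11%) and Spata32 (1.24%) were near these shares, and the part of free RNA in their spermatocyte-like levels was not tested. Spata33 (13.2%), Spata4 (43.8%) and Spata1 (57.1%) were far above.

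Lists of genes that work with named members were read beside them, against all genes tested, of which 38.1% were higher and 27.4% lower in the first step and 25.4% higher and 34.7% lower in the second. The lists are short, and their counts are descriptions. Of 11 tested partners of Spata22 in meiotic recombination, 1 was higher and 5 were lower in round than in spermatocyte-like cells, with a median log2 change of -0.77 (0.14 over all genes). In the second step 1 was higher and 3 were lower (median -0.28, -0.25 over all genes). In the first step Rpa1, a subunit of the single-strand DNA binding complex, fell by 4.24 ± 0.28 (adjusted p = 2.04e-10). Of 11 connecting piece and head-tail coupling genes listed beside Spata6, 10 were higher and 0 lower in the first step (median 3.13), and 8 were higher and 3 lower in the second (median 1.48, -0.25 over all genes). Tsks rose in the second step by 2.54 ± 0.19 (adjusted p = 2.34e-09), like Spata6, whereas Sun5 gained 6.08 ± 0.35 in the first (adjusted p = 4.76e-11) and fell by 4.76 ± 0.33 in the second (adjusted p = 7.72e-10).

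Of 10 acrosome genes listed beside Spata16, 4 were higher and 4 lower in the first step (median -0.20) and 2 higher and 6 lower in the second (median -1.50). Zpbp and Dpy19l2, both tied to round-headed sperm like Spata16, fell by 4.38 ± 0.19 and 3.02 ± 0.15 in the second step (adjusted p = 4.37e-12 and 2.13e-11). Of 14 midpiece and calcineurin genes listed beside Spata19 and Spata33, 6 were higher and 2 lower in the first step (median 0.35) and 5 higher and 6 lower in the second (median 0.18), and these shares were not far from those of all genes. Among them were Armc12, which rose by 3.55 ± 0.21 (adjusted p = 5.53e-11) in the first and Vdac2, which fell by 2.28 ± 0.17 (adjusted p = 2.06e-09) in the second. Of 5 tested genes of the linear ubiquitin machinery listed beside Spata2, 1 was higher and 1 lower in the first step (median -0.13) and 0 higher and 1 lower in the second (median 0.38). Otulin, a deubiquitinase of linear chains, rose by 2.65 ± 0.32 in the first (adjusted p = 6.30e-07). Cyld fell at both steps by 0.68 ± 0.14 and 1.39 ± 0.14 (adjusted p = 2.50e-04 and 9.10e-08). Of the ribosome maturation genes listed beside Spata5 and Spata5l1, 2 were tested. Rsl24d1 fell by 2.29 ± 0.83 in the first step (adjusted p = 0.0212) and Cinp by 1.03 ± 0.37 in the second (adjusted p = 0.0229).

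By Pearson's r of log2(CPM + 1) over the 18 sums of 6 libraries, a description over sums that share libraries and stages, the genes most like Spata22 were Orc6 (0.96), Ddx43 (0.95) and Tmem43 (0.95). For Spata16 they were Gmppa (0.94), AABR07012054.1 (0.94) and Washc1 (0.92). For Spata19 they were ENSRNOG00000026740, 1700019D03Rik and Ghitm, each at 0.998.

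Stress was then compared with control within each class. No member was called: 0 of 24 tested in spermatocyte-like, 0 of 29 in round and 0 of 28 in elongating spermatid-like cells, and 0 of 29 over all cells of a library, by edgeR and equally by DESeq2, where edgeR called 0, 0.0164%, 0.00928% and 0.00689% of all genes. At an unadjusted p under 0.05 there was 1 member in spermatocyte-like cells and 0 in each other comparison, against 1.87%, 2.40%, 1.60% and 1.38% of all genes. The median log2 change of the members was -0.02, 0.12, 0.00 and 0.14, where that of all genes was -0.02, 0.00, -0.02 and -0.01. In simulated counts of round spermatid-like cells with the totals of these libraries, 95% of genes changed 4-fold and 5.05% of those changed 2-fold were called. The simulation gave every gene the same preset spread between libraries. At that spread a change of 2-fold was mostly not detectable, but the spread of single members can differ from it. The members' own 95% intervals in these cells had a median half-width of 0.47 on the log2 scale. Left untested for few counts were Spata2L, Spata5l1, Spata31d1, Spata31d1b and Spata31e1 in spermatocyte-like cells (56, 9, 9, 52 and 53 counts) and Spata22 in elongating ones (16 counts). The 95% intervals lay within a change of 1 on the log2 scale, 2-fold either way, for 21 of 29 members in round, 12 of 28 in elongating and 8 of 24 in spermatocyte-like cells.

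**Figure D4:**
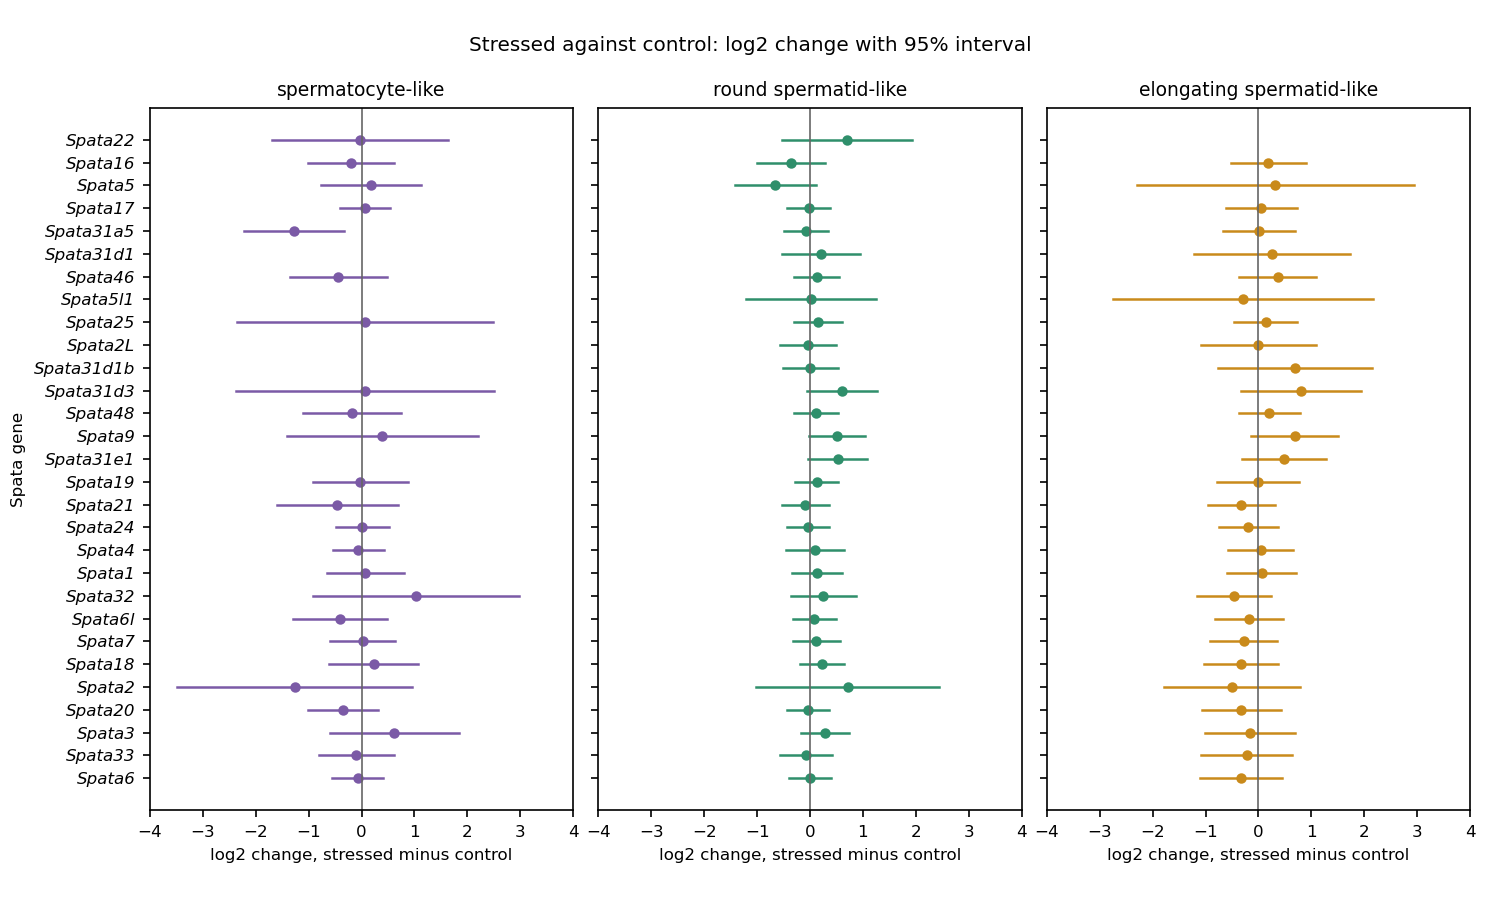
Log2 change between stressed and control rats (x axis, 0 is no change) with its 95% interval for each Spata gene tested (rows) in the 3 germ cell classes, from edgeR. Intervals are shortest in round spermatid-like cells, and Spata31a5 in spermatocyte-like cells is the only member whose interval, -2.22 to -0.33, leaves 0 aside.

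Spata31a5 in spermatocyte-like cells was the member with the smallest p. By replicate number, the control rats had 32.0, 42.8 and 53.7 CPM and the stressed rats 9.93, 17.1 and 24.1 CPM. The groups did not overlap, as was the case for 7.89% of all genes in this class. The log2 change was -1.28 ± 0.43 (SE), with an unadjusted p of 0.0130 and an adjusted p of 0.999 by edgeR, so it fails the correction. It ranged from -1.60 to -1.05 when single libraries were left out. The makeup of the class also varied between rats. Spata31a5 was at 2.38 CPM in the earlier spermatocyte-like cluster and at 20.5 CPM in the later one. The earlier cluster held 29.1%, 32.5% and 14.5% of the spermatocyte-like cells of control rats 1 to 3. In stressed rats 1 to 3 it held 41.7%, 40.8% and 21.2%, so the shares of the groups overlapped. The part of this makeup in the result was not tested. In round and elongating spermatid-like cells the changes of Spata31a5 were -0.07 ± 0.19 and 0.01 ± 0.31.

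In round spermatid-like cells the groups did not overlap for 2 members, Spata5 and Spata22, against 7.80% of all genes. No member was without overlap in elongating spermatid-like cells or over all cells, against 6.67% and 4.91% of all genes. Control rats had 15.0, 8.40 and 8.69 CPM of Spata5, and stressed rats had 6.72, 6.36 and 7.25 CPM. Control replicate 1 stood above the rest, and the log2 change was -0.66 ± 0.35 (unadjusted p = 0.0873, adjusted p = 1.00 by edgeR). For Spata22 the controls had 1.33, 1.08 and 1.14 CPM and the stressed rats 2.75, 1.58 and 1.71 CPM, with a change of 0.71 ± 0.56 (unadjusted p = 0.232, adjusted p = 1.00). In spermatocyte-like cells, where these 2 genes were highest, their changes were 0.18 ± 0.42 and -0.03 ± 0.75 and the groups overlapped.

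The smallest p among higher members in round spermatid-like cells belonged to Spata9, Spata31e1 and Spata31d3. Spata9 had 257, 430.2 and 340.4 CPM in the controls and 527, 570.5 and 363 CPM in the stressed rats. The 2 highest values were from stressed rats, and stressed replicate 3 lay within the controls. The makeup of the round class also varied between rats. Position 5, where these 3 genes were higher than in positions 3 and 4, held 24.4%, 33.3% and 29.4% of it in control rats 1 to 3. In stressed rats 1 to 3 it held 41.4%, 40.1% and 27.0%, so the shares of the groups overlapped. The part of this makeup in the round class was not tested. The log2 changes were 0.51 ± 0.24 for Spata9, 0.52 ± 0.25 for Spata31e1 and 0.61 ± 0.30 for Spata31d3 (unadjusted p = 0.0567, 0.0630 and 0.0707, and adjusted p = 1.00 for all 3 by edgeR). The same 3 had the smallest p among higher members in elongating spermatid-like cells, at 0.68 ± 0.37, 0.47 ± 0.36 and 0.80 ± 0.52. There stressed replicate 1 gave the highest value of each, 213 CPM for Spata9, 87.6 for Spata31e1 and 50.1 for Spata31d3, and without it Spata31d3 was at -0.11. These 3 genes were higher in the earliest elongating cluster than in positions 8 to 11, and that cluster held 75.0% of the elongating spermatid-like cells of stressed replicate 1. The part of this makeup was not tested.

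**Figure D5:**
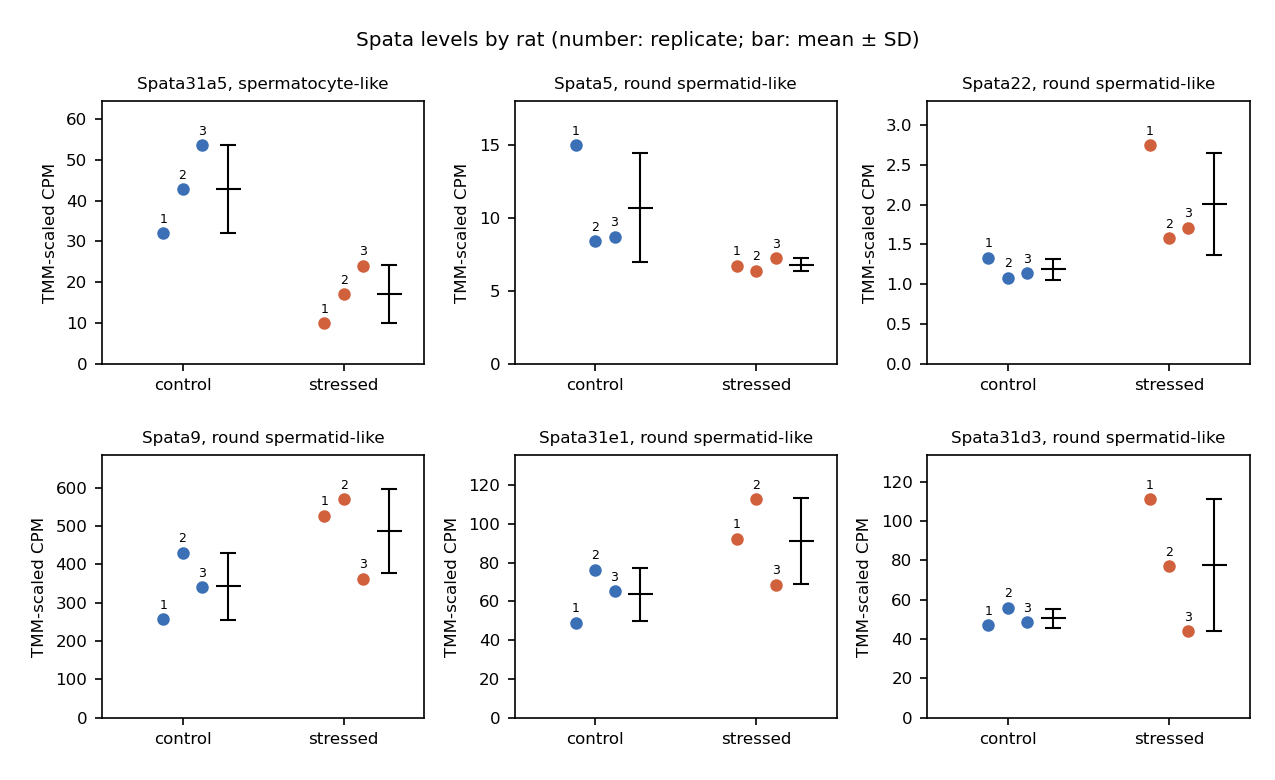
TMM-scaled CPM (y axis, from 0) of Spata genes in single rats of the control and stressed groups in the named class, with replicate numbers over the points and bars for mean ± SD of 3 rats. The groups are apart for Spata31a5, Spata5 and Spata22 and overlap for Spata9, Spata31e1 and Spata31d3, and none passed the adjusted test.

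Among lower members Spata16 changed by -0.36 ± 0.29 and Spata21 by -0.09 ± 0.20 in round spermatid-like cells. In elongating ones Spata32, Spata21 and Spata18 were at -0.46 ± 0.32, -0.33 ± 0.29 and -0.33 ± 0.32. With TMM scaling, stressed replicate 1 had the lowest value of each of these 3. In CPM of all counts its Spata18 level (680) lay above that of stressed replicate 2 (509). In spermatocyte-like cells Spata32 was at 1.03 ± 0.88, Spata3 at 0.62 ± 0.55 and Spata18 at 0.23 ± 0.38, and Spata2 at -1.26 ± 1.01 and Spata20 at -0.35 ± 0.30. Each of these changes was smaller than 2 SE, and the groups overlapped.

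Over all cells of a library, where fewer cells of a type and less RNA per cell cannot be told apart, Spata3 and Spata19 were at 0.43 ± 0.29 and 0.40 ± 0.29 and Spata31e1 at 0.33 ± 0.35. Spata31a5, Spata2L and Spata16 were at -0.28 ± 0.28, -0.29 ± 0.35 and -0.32 ± 0.40. Of the partner lists, 0 genes were called for stress in any class. Among the members with the most counts in round spermatid-like cells, Spata6 had 3833 ± 589 CPM in control and 3840 ± 83.8 CPM in stressed rats (SD, n = 3 each) and Spata19 had 1869 ± 160 and 2044 ± 323 CPM, with 95% intervals of the log2 change from -0.39 to 0.40 and from -0.27 to 0.53.

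A test of the interaction of class and group asked whether the effect of stress differed between the stages. It called 0 of the 29 members and 0 of 12467 genes, with 2 members and 348 genes (2.79%) at an unadjusted p under 0.05. By edgeR, Spata32 had an unadjusted p of 0.0189 and Spata31a5 of 0.0207, and the adjusted p was 1.00 for both. For Spata32 the log2 change with stress differed from that in spermatocyte-like cells by -0.85 in round and by -1.77 in elongating spermatid-like cells. Its spermatocyte-like level, the base of both differences, is one of those near the shares of Prm2 and Tnp1. In simulated counts with the same preset spread for every gene, this test called 49.1% of genes given a 4-fold interaction.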

How the data were processed

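The deposited files hold the authors' whole-number counts per gene and cell, described as not normalized in the file names. Whether they count reads or molecules, is not given in the sources used here, nor are the aligner, counter and genome build. The highest mitochondrial share in a cell was 4.59% to 5.00% by library, so cells had been filtered before deposit. Clusters came from scanpy 1.11.5 (1989 variable genes without Spata or mitochondrial genes, 30 principal components, 15 neighbours, Leiden resolution 1) and were named from at least 3 marker genes. Scrublet called 67 cells (0.571%) doublets, and all cells were kept. The 20 spermatogonia-like cells and 348 cells of unnamed clusters entered only the sums over all cells. Counts were summed per library and class and tested with edgeR 4.0.16 (filterByExpr, TMM factors, quasi-likelihood test, Benjamini-Hochberg adjustment over all genes, threshold 0.05), with the library as a block between stages, and the fits were tested on simulated data. DESeq2 1.42.0, total counts, no filter, another clustering and leaving out single libraries were alternatives. Each library is labelled as a separate rat. Library pairs within a group differed by far more than sampling noise (chi-square per degree of freedom 163 to 621), so none was a copy of another. Libraries of different cells from 1 rat could also differ in this way, so the separate rats rest on the labels. CPM printed for stages and for stress come from separate fits and are not on the same scale.

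Every member was described. Those given in most detail are the 6 with the smallest p in each direction per stage comparison, the 3 with the smallest p in each direction per stress comparison, members with a known role and members with few counts, and of each partner list up to 2 genes with the smallest p. A gene of the Spata22 list that this rule selects is not reported here. Other members and values were named after they were seen. The members and lists were chosen with earlier results of these data known.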

Additional observations from a re-analysis of the deposited data

Results flagged for a closer look

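For each of 29 members in each of 3 classes, the highest or lowest of the 6 libraries was compared with its nearest neighbour, relative to the range of the 6. In 10 of 87 cases this gap was above the 95% critical value, where chance gives about 1 in 20, and 8 of the 10 extreme values were those of stressed replicate 1, which had 40 elongating spermatid-like cells. With TMM scaling, that library was low in elongating spermatid-like cells for Spata3 (1469 CPM, others 4155 to 5672), Spata6l (214 CPM, others 481 to 544), Spata7 (1579 CPM, others 3125 to 3876) and Spata24 (681 CPM, others 1078 to 1254). In the same cells it was high for Spata31d1b (25.9 CPM, others 5.39 to 10.8) and Spata31d3 (84.5 CPM, others 21.8 to 38.9). The 4 low genes peak in late clusters and the 2 high genes in the last round spermatid-like cluster. The TMM factor of this sum was 0.84, against 0.40 to 0.45 in the other elongating sums. In CPM of all counts, Spata24 was highest in this library (574, others 443 to 568.5) and Spata7 (1330) lay within the others (1250 to 1757). Spata3 (1238, others 1883 to 2303) and Spata6l (180, others 199 to 223) were still lowest. Spata31d1b (21.9, others 2.22 to 4.31) and Spata31d3 (71.2, others 9.69 to 17.6) were still highest. In round spermatid-like cells stressed replicate 1 was high for Spata18 (238 CPM, others 155 to 186) and Spata22 (2.45 CPM, others 0.955 to 1.51). The remaining values were those of control replicate 1 for Spata5 in round spermatid-like cells (13.1 CPM, others 5.60 to 7.77) and of control replicate 3 for Spata2L in spermatocyte-like cells (2.83 CPM, others 0 to 0.637).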

How the results depend on the processing

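Of the counts of called members, 112 values under alternatives stayed within 1.5 times the count reported and 2 did not, both with total counts in place of TMM factors: 5 members in place of 3 were lower in round than in spermatocyte-like cells, and 8 in place of 13 were higher in elongating than in round spermatid-like cells. The 112 values include the stress and interaction counts, where the count reported was 0 and a factor of 1.5 has no meaning. Lower in elongating than in round spermatid-like cells were 16 members with total counts and 9 with DESeq2, against 11. The cause was not tested. Leaving out single libraries gave 24 to 25 higher and 2 to 3 lower members for the first step, 13 to 14 higher and 8 to 13 lower for the second, and 0 to 0 for stress in each class, in all cells and in the interaction. Of the 12388 to 13059 genes tested in these stage fits, 4527 to 4962 were higher and 2836 to 3752 lower in the first step. In the second, 2764 to 3543 were higher and 3882 to 4499 lower. Without the library as a block the stage counts were 22, 2, 13 and 9, against 4476, 3179, 2915 and 3939 of 12467 genes. The labels do not say that replicate numbers pair the rats. Same-numbered control and stressed libraries had correlated deviations of 0.07, 0.03 and 0.28 in spermatocyte-like and -0.08, 0.00 and 0.24 in round spermatid-like cells. Control replicate 2 was at 0.23 and 0.32 with stressed replicate 1 in these classes, and at -0.35 and -0.40 with stressed replicate 3. With 3 rats per group these values cannot settle pairing, and a shared batch was not tested. With the replicate block, 0 members were called for stress in each class and in all cells.

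Of the members with the smallest p in each comparison, 560 values kept direction and side of the threshold, and the 6 that lost a call were all of Spata16 between spermatocyte-like and round cells (adjusted p from 0.0516 to 0.110 by edgeR). Other members also lost calls in the stage comparisons, as given above. Over all members tested for stress, leaving out 1 library turned the sign of 17 of 24 in spermatocyte-like, 17 of 29 in round, 16 of 28 in elongating spermatid-like and 18 of 29 in all cells, none of them called. Among the members with the smallest p, signs turned for 7 stress changes: Spata18 in spermatocyte-like cells without the cells of highest doublet score (-0.18), Spata21 in round spermatid-like cells without control replicate 3 (0.013, with a range of -0.25 to 0.013 over single libraries left out), Spata2L in all cells without control replicate 3 (0.036, range -0.51 to 0.036), Spata31d3 in elongating spermatid-like cells without stressed replicate 1 (-0.11, range -0.11 to 1.12), and at the finer clustering Spata9 (-0.062), Spata31d3 (-0.065) and Spata31e1 (-0.37) in elongating spermatid-like cells. The finer clustering left stressed replicate 1 with under 20 such cells, so it was not in that fit. The smallest sums limit the depth most: 24 spermatocyte-like and 40 elongating spermatid-like cells of stressed replicate 1.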

Other observations

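The largest cluster without a name held Spata transcripts. It had Apoe, Fos and Cd74 as leading genes and held 229 cells of stressed replicate 1 and 63 of control replicate 2. In CPM of all counts, Spata6 was at 10943 and 11293 in its cells, against 8865 to 10467 in the elongating spermatid-like cells of the 3 controls and 6587 in the 40 such cells of stressed replicate 1 itself. Spata19 was at 3394 and 3932, against 2614 to 3159 in the controls. Spata18, highest in the latest clusters, was at 833 and 853. Spata9 and Spata31d3, which peak in round spermatid-like cells, were at 30 and 9.29 in this cluster's cells of stressed replicate 1, against 303 and 71.2 in its elongating spermatid-like cells, and Spata22 was at 0 in this cluster's cells of both libraries. These cells are in no class comparison, and the elongating sum of stressed replicate 1 does not hold them.

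The 20 spermatogonia-like cells, pooled over libraries, held 67 counts of Spata5 in 9 cells (122 CPM), 142 of Spata33 in 16 cells and 0 of Spata22 and Spata5l1. They also held 487 counts of Spata6 in 14 cells (889 CPM), a gene otherwise highest in elongating spermatid-like cells, and the part of free RNA in this value was not tested. The name of these cells held only in the main clustering. At the finer clustering, a cluster of 20 cells with the same leading genes scored highest as stromal and stayed unnamed. The same was so with the Spata genes in the clustering.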
